A study of Arabidopsis thaliana with 12 samples.

Results

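Transcript levels were compared between irr and wild-type (WT) Arabidopsis thaliana seedlings that received water and no elicitor, using the 6 water libraries of a series of 12. The irr libraries, also labelled rrm, are 3, and the WT libraries are 3. Both genotypes are in the accession Columbia 0. Per the labels, seedlings were grown on plates for 7 to 10 days and moved to liquid medium at about 15 plants to a well. After 3 h they received water, and tissue was harvested after 24 h in constant light. The other 6 libraries come from irr and WT seedlings treated in the same way with 1 µM AtPep1 in place of water, and entered the estimate of the spread. The labels name 1 irr line, with no second allele and no complemented line, so an effect of the mutation and any other difference between the lines cannot be told apart. The design text calls the replicates biological, and nothing states that they are separate cultures or were made on separate days. The p-values therefore cover the spread of these samples alone, and that spread may be technical. A gene entered the comparison if it had at least 1 FPKM (fragments per kilobase of transcript, scaled to library size) in at least 3 of the 6 libraries, which 17490 of the 32846 deposited genes did.

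Plants perceive molecules of microbes and of their own damaged cells through receptor kinases at the cell surface. Calcium-dependent kinases and MAP kinases carry the signal to transcription factors of the WRKY and ERF families, and the output includes antimicrobial proteins, indole compounds, detoxifying enzymes and a reinforced wall. IRR is known from the published work on it as a protein with an RNA recognition motif that acts on the splicing of defence transcripts, and AtPep1 is a damage peptide of this signalling system. The comparison under water asks how the mutant stands before the peptide is added.

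Depth, worked out from the spacing of low values, was 17.4 to 28.6 M reads in 5 of the 6 libraries and 56.5 M in irr replicate 3. The labels state 20 M raw reads for each sample, and whether the recovered unit is a read or a read pair is not known. For a transcript of 1 kb the step of 1 read was 0.0177 to 0.0574 FPKM. Spearman's rho across the tested genes lay between 0.970 and 0.978 among irr libraries, between 0.979 and 0.982 among WT libraries, and between 0.936 and 0.975 across genotypes. A pair of irr libraries stood apart. In irr replicate 3, transcripts encoded in the chloroplast made up 11.1% of all FPKM, against 4.02% to 5.47% in the other 5 libraries. Replicate 2 of irr lay nearest to WT for many genes that were higher in irr. Over all tested genes its rho was 0.970, 0.965 and 0.975 with WT replicates 1, 2 and 3. With irr replicates 1 and 3 it was 0.976 and 0.970, so this library was about as near to WT as to its own group. For irr replicate 3 the values with WT replicates 1, 2 and 3 were 0.936, 0.937 and 0.947. The part of depth and of these libraries in the results was not tested beyond the values without each library.

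AT3G23900, the locus known as IRR, had 12.8, 11.6 and 11.5 FPKM in irr, against 10.7, 14.6 and 13.05 FPKM in WT. The groups overlapped, and the log2 difference, irr minus WT on the log2(FPKM + 1) scale ± SE, was -0.08 ± 0.11 (limma adjusted p = 0.717). Its level thus does not tell the 2 labels apart. A value per gene does not say which part of the transcript was read, so it cannot check a mutation that leaves reads in place, and the genotype rests on the labels throughout. CPK28 [AT5G66210], a calcium-dependent kinase that restrains immune signalling and a known target of IRR, had 17.05, 14.5 and 15.6 FPKM in irr, against 10.02, 12.8 and 10.8 FPKM in WT. All irr values lay above all WT values, while the difference of 0.46 ± 0.18 missed the threshold (adjusted p = 0.163), and splice forms are not visible in these values.

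Of the 17490 genes, 755 were called different at an adjusted p under 0.05 (limma, Benjamini-Hochberg), which is 4.32% of those tested. In irr 571 of them were higher, 3.26% of those tested, and 184 were lower, 1.05%. The irr and WT values did not overlap in any of the 755, nor in 4900 genes in all, 28.02% of those tested. A difference of at least 1 on the log2 scale was found for 274 called genes, 240 higher and 34 lower. The median difference was 0.91 among the higher genes, -0.71 among the lower genes and 0.02 over all genes. Among the genes called higher, the median level was 17.01 FPKM over the 6 libraries, and among those called lower 13.0 FPKM, against 9.92 FPKM over all genes tested. With library medians made equal, 470 genes were higher and 304 lower in irr, while quantile normalization gave 526 higher and 380 lower genes.

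**Figure D1:**
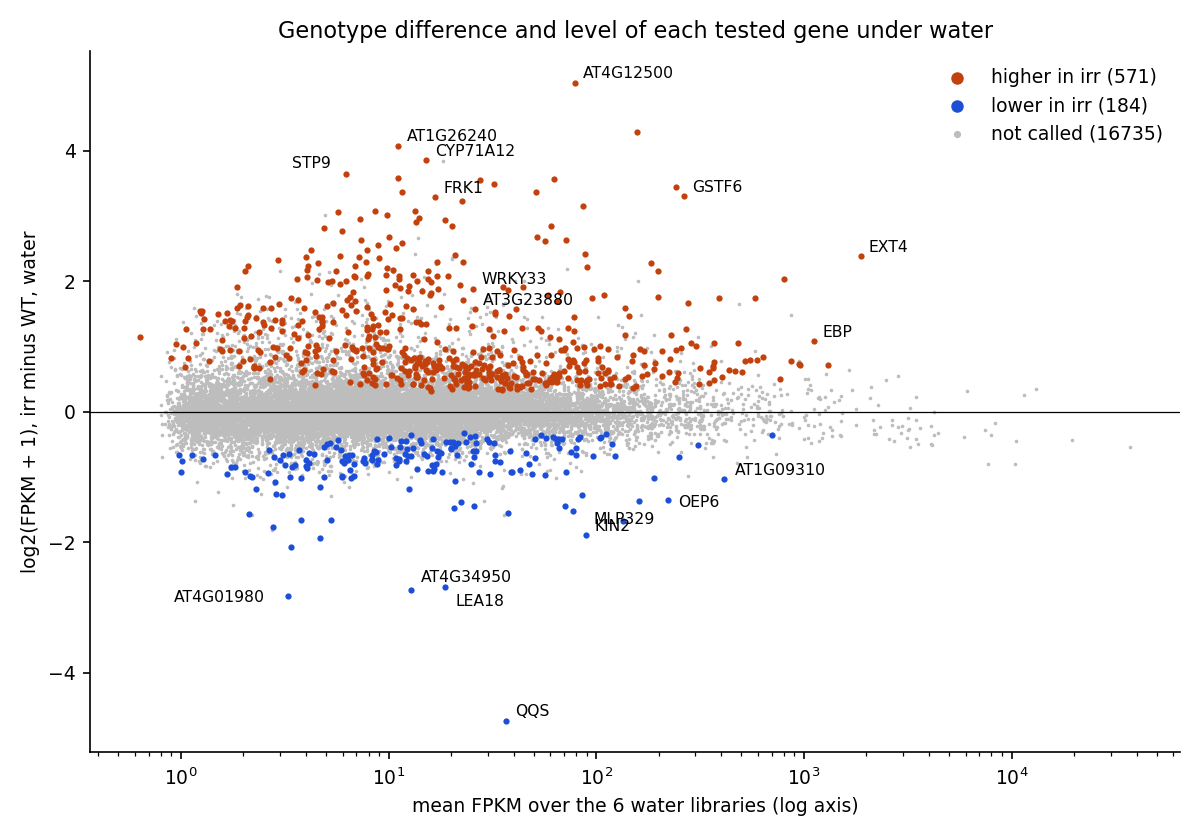
Each point is 1 of the 17490 tested genes, placed by its mean FPKM over the 6 water libraries (horizontal, log axis) and its difference irr minus WT in log2(FPKM + 1) (vertical). Orange points are the 571 genes called higher in irr and blue points the 184 called lower, and the higher genes reach 5.04 while the lower ones, other than QQS, end at -2.82.

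The count of calls depended on single libraries. It was 155, 1051 and 69 without irr replicates 1, 2 and 3, and 46, 147 and 370 without WT replicates 1, 2 and 3. Leaving out a Pep1 library, which enters only through the spread, gave 691, 1444 and 1331 calls for irr Pep1 replicates 1, 2 and 3, and 387, 488 and 460 for WT Pep1 replicates 1, 2 and 3. The direction of these genes cannot turn in such fits, because their irr and WT values do not overlap. The lists and families were chosen with earlier results of these data known, so their counts and shares of calls are descriptions alone. Of 60 lists and families recomputed in each fit, 41 held at least 1 call with all libraries. Of these 41, 21, 40 and 10 still held one without irr replicates 1, 2 and 3, and 6, 18 and 30 without WT replicates 1, 2 and 3. Of the 130 called genes chosen for naming, 121 were called again without irr replicate 2 and 17 without irr replicate 3, 36 without irr replicate 1, and 17, 42 and 72 without WT replicates 1, 2 and 3.

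The largest rises in irr included lipid-transfer, wall and membrane proteins. AT4G12500, a lipid-transfer protein of the AZI1 type, had 262, 23.02 and 179.5 FPKM in irr, against 2.43, 3.84 and 0.922 FPKM in WT. Its neighbour AT4G12490 had 492, 75.5 and 336 FPKM in irr, against 17.2, 12.9 and 5.85 FPKM in WT. Both separate the genotypes fully, with irr replicate 2 the lowest of the irr libraries, and differed by 5.04 ± 0.93 (adjusted p = 0.0197) and 4.28 ± 0.88 (adjusted p = 0.0256). Because they lie side by side and resemble each other closely, reads may have been shared out between them wrongly. These 2 were the called members of 6 measured AZI1-type genes, 33.3% against 3.26% of all genes called higher, and 2 of the 6 had negative differences. Calls in that list were 0 without irr replicate 1, 4 without irr replicate 2, and 0, 0 and 0 without WT replicates 1, 2 and 3. AT1G26240, a proline-rich extensin-like wall protein, had 27.8, 8.28 and 29.97 FPKM in irr, against 0.122, 0.1599 and 0.323 FPKM in WT, a difference of 4.08 ± 0.56 (adjusted p = 0.0066). AT2G45220 and ATPMEPCRB [AT4G02330], pectin methylesterases that change the charge of wall pectin, were higher by 3.36 ± 0.73 and 3.37 ± 0.54. AT2G17740, with a cysteine- and histidine-rich C1 domain, and the putative membrane lipoprotein AT3G18250 were higher by 3.49 ± 0.71 and 3.55 ± 0.57. AT5G42530, which encodes a protein without a known role, had 96.9, 124 and 122 FPKM in irr, against 20.3, 5.61 and 5.44 FPKM in WT, and here irr replicate 2 was the highest library.

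**Figure D2:**
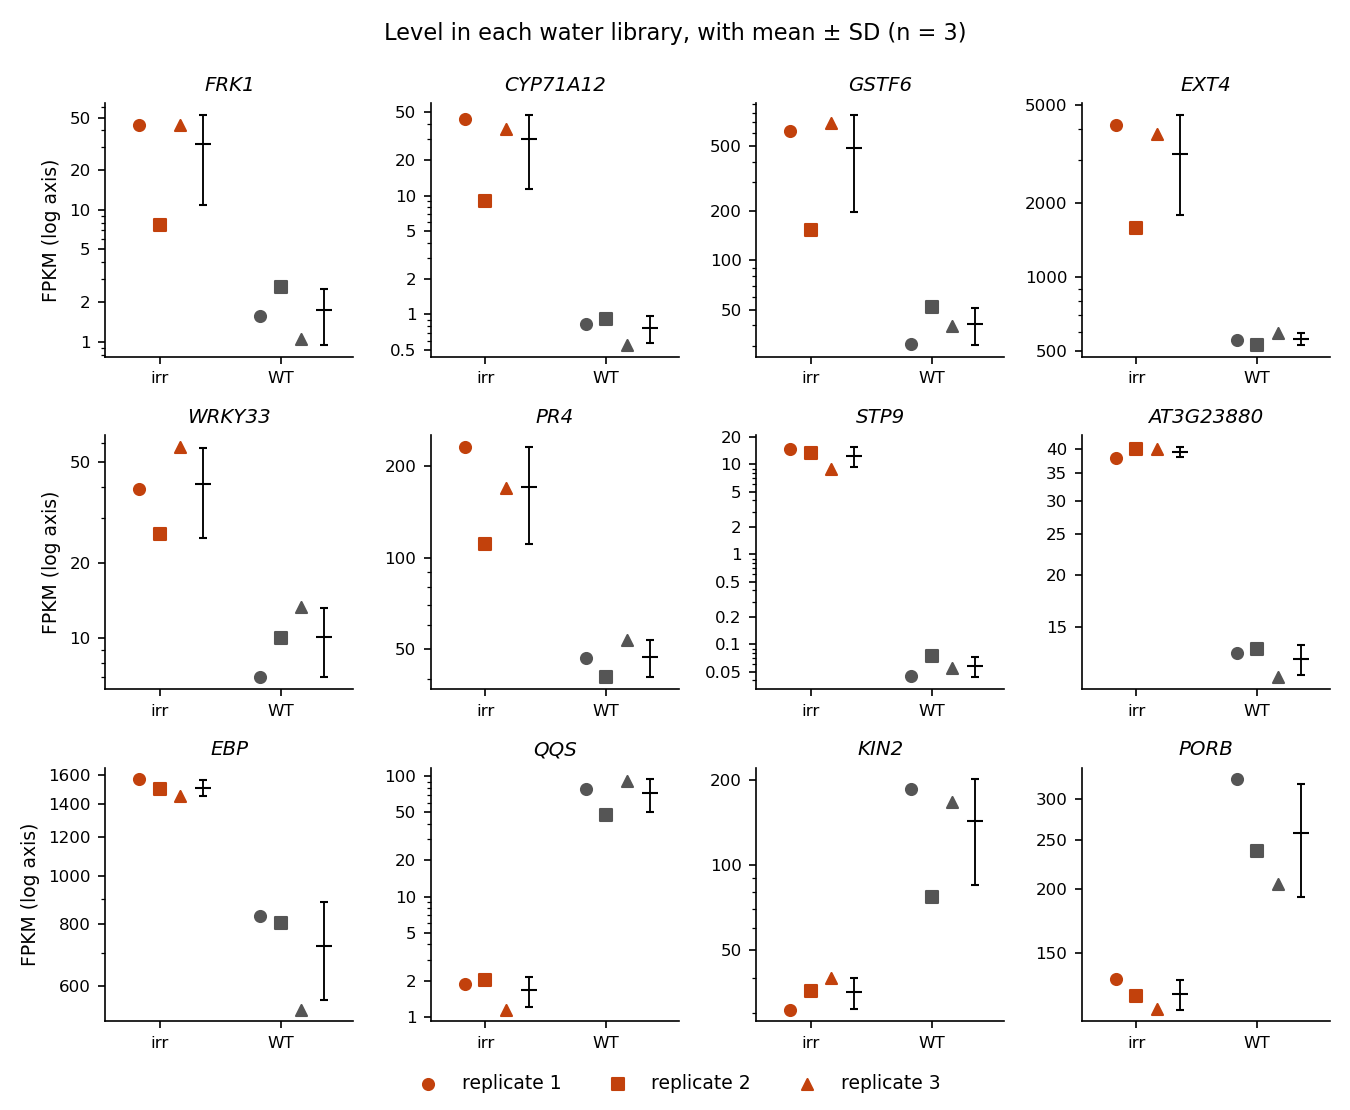
FPKM in each water library (vertical, log axis, a different range in each panel) for 12 named genes, with irr left of WT, 1 symbol shape per replicate number, and the mean ± SD of 3 libraries beside the points. In FRK1, CYP71A12, GSTF6, EXT4, WRKY33 and PR4 irr replicate 2 is the lowest irr library, while in STP9, AT3G23880, EBP and QQS it is not.

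In perception and early signalling, few members of each list passed the test. Called higher were 6.25% of pattern receptors and co-receptors and 10% of cysteine-rich receptor-like kinases, against 3.26% of all genes. FRK1 [AT2G19190], a receptor kinase gene that flagellin induces, had 43.95, 7.67 and 43.6 FPKM in irr, against 1.55, 2.595 and 1.05 FPKM in WT, a difference of 3.28 ± 0.77 (adjusted p = 0.0372). Replicates 1 and 3 of irr lay close together, and irr replicate 2 lay between them and WT. Of 16 measured genes for pattern receptors and co-receptors (18 listed) 1 rose, SOBIR1 [AT2G31880], the partner kinase of receptor-like proteins, by 1.07 ± 0.21. The median of that list was 0.48, against 0.02 over all genes. Among 20 measured cysteine-rich receptor-like kinases, with a median of 0.22, CRK13 [AT4G23210] and CRK5 [AT4G23130] rose, by 1.99 ± 0.45 and 1.39 ± 0.32. Of 100 measured intracellular disease resistance genes of the NBS-LRR class 4 rose, a share of 4% against 3.26% of all genes called higher, led by AT5G41750 at 1.75 ± 0.43. Leucine-rich repeat receptor kinases, a family looked up after the values were seen, had 102 measured members and a median of 0.003. Of these 4 rose, SOBIR1 among them, and 1 fell, 4.90% called against 4.32% of all genes. None of the 6 measured Pep precursor genes passed. PROPEP3 [AT5G64905], whose product yields a peptide related to AtPep1, had 8.795, 1.795 and 15.4 FPKM in irr, against 0.792, 0.709 and 0.2605 FPKM in WT, without overlap between the genotypes and with a difference of 2.29 ± 0.70 (adjusted p = 0.0817).

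Calcium signalling genes were higher in irr in 4 cases. Of 12 measured calcium-dependent kinases and calmodulin-like proteins 4 rose and 0 fell, 33.3% against 3.26% of all genes called higher, with a list median of 0.57. The calls numbered 1, 4 and 0 without irr replicates 1, 2 and 3, and 0, 1 and 2 without WT replicates 1, 2 and 3. TCH3 [AT2G41100], a calmodulin-like protein gene first known as touch-induced, had 411, 336 and 515 FPKM in irr, against 107, 156 and 130.1 FPKM in WT, a difference of 1.67 ± 0.29 (adjusted p = 0.0164). TCH2 [AT5G37770] rose by 0.81 ± 0.15, and the kinase genes CPK6 [AT2G17290] and CDPK2 [AT1G35670] by 0.64 ± 0.15 and 0.49 ± 0.10. The touch markers, of which TCH2 and TCH3 are 2 of 3, summed to 526 to 828 FPKM in irr and 234 to 310 FPKM in WT. That sum moves with the calcium list, and the part of handling in it was not tested. MKK9 [AT1G73500], a MAP kinase kinase, rose by 0.86 ± 0.18 and was the 1 called member of 13 in the MAP kinase list. Of 20 measured U-box ubiquitin ligases PUB23 [AT2G35930], which dampens pattern responses, and PUB4 [AT2G23140] rose, by 1.78 ± 0.38 and 0.43 ± 0.09. The share called higher was 7.69% in the MAP kinase list and 10% among U-box ligases, against 3.26% over all genes.

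WRKY transcription factors bind defence promoters. Of 50 measured WRKY genes (71 listed) 12 rose and 0 fell, 24.0% against 3.26% of all genes called higher, and the median over the measured members was 0.43. WRKY33 [AT2G38470], a regulator of camalexin synthesis, had 39.3, 26.03 and 57.6 FPKM in irr, against 7.04, 9.996 and 13.3 FPKM in WT, a difference of 1.89 ± 0.39 (adjusted p = 0.0263). WRKY45 [AT3G01970] had 70.8, 39.6 and 60.4 FPKM in irr, against 12.8, 16.7 and 12.9 FPKM in WT, a difference of 1.91 ± 0.27 (adjusted p = 0.00922). WRKY70 [AT3G56400], which acts downstream of salicylic acid, rose by 1.76 ± 0.40 and WRKY51 [AT5G64810] by 1.61 ± 0.39. The count of WRKY genes called higher was 16 without irr replicate 2, 1 without irr replicate 3 and 1 without irr replicate 1, and 0, 2 and 8 without WT replicates 1, 2 and 3. Of 6 measured ERF factors of group IX, which answer to ethylene and jasmonate, 3 rose, ERF5 [AT5G47230] by 1.48 ± 0.29, AT5G51190 by 1.45 ± 0.34 and ORA59 [AT1G06160] by 1.38 ± 0.22. Group IX calls were 1, 3 and 0 without irr replicates 1, 2 and 3, and 0, 1 and 2 without WT replicates 1, 2 and 3. The group IX share called higher was 50%, against 3.26% of all genes. NAC factors were called at a share of 6.67%, with 3 of 45 measured higher, against 3.26% of all genes. NAC calls were 1, 5 and 0 without irr replicates 1, 2 and 3, and 0, 0 and 0 without WT replicates 1, 2 and 3. NAC6 [AT5G39610], also known as ORE1, a regulator of leaf ageing, had 58.5, 41.01 and 69.4 FPKM in irr, against 17.1, 22.6 and 18.3 FPKM in WT, a difference of 1.47 ± 0.28 (adjusted p = 0.0206). It is also the called member of the senescence list, of which 2 of 5 genes were measured and whose 5 genes summed to 55.1 to 88.7 FPKM in irr and 29.8 to 36.8 FPKM in WT, with SAG12 at 0 in all 6 libraries. The part of ageing tissue in these results was not tested.

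Hormone genes that rose were mostly of the ethylene and salicylic acid lists. Of 17 ethylene genes, all measured, 7 rose and 0 fell, 41.2% against 3.26% of all genes called higher, and the list median was 0.78. They span the pathway. EFE [AT1G05010], whose product makes ethylene, had 672, 748 and 831 FPKM in irr, against 419.9, 499.6 and 385 FPKM in WT, a difference of 0.79 ± 0.14 (adjusted p = 0.0164). The receptor genes ETR2 [AT3G23150] and ERS2 [AT1G04310] rose by 1.01 ± 0.23 and 0.98 ± 0.16, and EBF2 [AT5G25350], which marks the transcription factor EIN3 for breakdown, by 0.8 ± 0.17. Every member of this list had a positive difference. Not in this list, EBP [AT3G16770], an ethylene response factor that was among the most abundant called transcripts, had 1570, 1502 and 1454 FPKM in irr, against 829.7, 802 and 536 FPKM in WT, a difference of 1.09 ± 0.19 (adjusted p = 0.0172), and its irr values lay close together.

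Of 14 measured genes of salicylic and pipecolic acid (21 listed) 6 rose and 0 fell, 42.9% against 3.26% of all genes called higher, with a median of 0.73. CBP60G [AT5G26920], a transcription factor that turns on salicylic acid synthesis, had 32.4, 12.8 and 42.7 FPKM in irr, against 3.904, 3.21 and 7.41 FPKM in WT, a difference of 2.29 ± 0.44 (adjusted p = 0.0206). Its relative SARD1 [AT1G73805] rose by 1.43 ± 0.32. FMO1 [AT1G19250], which makes the mobile signal N-hydroxypipecolic acid, had 3.17, 1.13 and 2.87 FPKM in irr, against 0.1403, 0.0329 and 0.193 FPKM in WT, and the values separate fully although the WT level was near that of a few reads. Salicylic list calls were 1, 7 and 1 without irr replicates 1, 2 and 3, and 0, 1 and 4 without WT replicates 1, 2 and 3. Ethylene list calls were 1, 9 and 0 without irr replicates 1, 2 and 3, and 0, 3 and 2 without WT replicates 1, 2 and 3. Of 19 measured jasmonate genes JAZ1 [AT1G19180], a repressor of the pathway that the pathway itself induces, and ACX1 [AT4G16760], an oxidase of jasmonate synthesis, rose, by 2.04 ± 0.44 and 0.8 ± 0.17. Jasmonate calls were 0, 2 and 0 without irr replicates 1, 2 and 3, and 0, 0 and 0 without WT replicates 1, 2 and 3. IAA2 [AT3G23030], 1 of 9 measured early auxin response genes, rose by 0.79 ± 0.14. Called higher were 10.5% of the jasmonate list and 11.1% of the auxin list, against 3.26% of all genes.

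Antimicrobial proteins act directly on microbes. Of 5 measured genes for defensins and other antimicrobial proteins (10 listed) 4 rose, and of 15 measured chitinases 5 rose and 0 fell, with medians of 1.79 and 1.01. All genes were called higher at 3.26%. The lists share CHI and HCHIB. Antimicrobial calls were 2, 4 and 0 without irr replicates 1, 2 and 3, and 0, 0 and 2 without WT replicates 1, 2 and 3. Chitinase calls were 0, 9 and 0 without irr replicates 1, 2 and 3, and 0, 1 and 2 without WT replicates 1, 2 and 3. PR4 [AT3G04720], a chitin-binding protein of pathogen defence, had 232, 111 and 170.3 FPKM in irr, against 46.8, 40.4 and 53.7 FPKM in WT, a difference of 1.79 ± 0.30 (adjusted p = 0.0148). The chitinase gene AT2G43620 had 188, 58.8 and 222 FPKM in irr, against 14.8, 22.2 and 8.68 FPKM in WT, a difference of 3.16 ± 0.60 (adjusted p = 0.0202). CHI [AT2G43570], AT1G02360 and AT2G43590, further chitinase genes, rose by 1.87 ± 0.38, 2.08 ± 0.46 and 2.06 ± 0.45. The trypsin inhibitor genes TI1 [AT2G43510] and KTI1 [AT1G73260], whose products block proteases, rose by 1.7 ± 0.38 and 1.05 ± 0.22, and KTI1 had 682, 547 and 695 FPKM in irr, against 274, 237 and 447 FPKM in WT.

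Camalexin and indole glucosinolates are defence compounds made from tryptophan. Of 14 measured genes of their synthesis 4 rose and 0 fell, 28.6% against 3.26% of all genes called higher, and the median was 1.48, with 13 of 14 differences positive. CYP71A12 [AT2G30750], a cytochrome P450 that feeds camalexin and cyanogenic indole compounds, had 43.8, 8.93 and 36.2 FPKM in irr, against 0.8297, 0.9199 and 0.551 FPKM in WT, a difference of 3.86 ± 0.64 (adjusted p = 0.0148). CYP83B1 [AT4G31500], an early enzyme of indole glucosinolates, had 196, 45.5 and 219.8 FPKM in irr, against 23.5, 22.3 and 22.6 FPKM in WT, a difference of 2.41 ± 0.58 (adjusted p = 0.0404). IGMT2 [AT1G21120], a methyltransferase of these compounds, and MYB51 [AT1G18570], their transcription factor, rose by 2.84 ± 0.60 and 2.08 ± 0.51. Not in this list, AKN2 [AT4G39940], a kinase that makes the activated sulfate used in glucosinolate synthesis, had 53.8, 10.04 and 63.3 FPKM in irr, against 3.26, 2.96 and 1.76 FPKM in WT, a difference of 3.24 ± 0.71 (adjusted p = 0.0312). Calls in the list of 14 were 0, 7 and 0 without irr replicates 1, 2 and 3, and 0, 1 and 2 without WT replicates 1, 2 and 3. None of the 9 measured aliphatic glucosinolate genes passed, with a median of -0.14.

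Of 18 measured berberine bridge enzyme-like oxidases 5 rose and 0 fell, 27.8% against 3.26% of all genes called higher, with a median of 1.12. Berberine family calls were 1, 9 and 0 without irr replicates 1, 2 and 3, and 0, 1 and 3 without WT replicates 1, 2 and 3. AT1G26380, an oxidase of the cyanogenic indole branch, had 36.3, 7.23 and 31.7 FPKM in irr, against 0.956, 1.44 and 2.496 FPKM in WT, and AT1G26420 and AT1G26410, its near neighbours on the chromosome, rose by 3.08 ± 0.53 and 2.32 ± 0.48. These relatives are alike in sequence, so their division of reads is uncertain. AT1G30730 had 190.5, 91.02 and 163 FPKM in irr, against 24.7, 22.4 and 47.2 FPKM in WT, a difference of 2.21 ± 0.33 (adjusted p = 0.0108).

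Glutathione transferases attach glutathione to reactive compounds. Of 8 measured phi-class genes 4 rose, with a median of 1.34, and of 22 measured tau-class genes 1 rose, GSTU10 [AT1G74590] by 1.5 ± 0.34, with a median of 0.06. The phi class thus had 50% called higher and the tau class 4.55%, against 3.26% of all genes. The difference between the classes was not tested. Phi-class calls were 2, 5 and 1 without irr replicates 1, 2 and 3, and 0, 3 and 3 without WT replicates 1, 2 and 3. GSTF6 [AT1G02930] had 618, 154 and 688 FPKM in irr, against 30.99, 51.6 and 39.5 FPKM in WT, and GSTF7 [AT1G02920] had 615, 156 and 579 FPKM in irr, against 23.6, 32.4 and 52.1 FPKM in WT. They are neighbours of nearly the same sequence, so their reads may be divided uncertainly, and differed by 3.31 ± 0.59 and 3.44 ± 0.56 (adjusted p = 0.0176 and 0.0141). GSTF2 [AT4G02520] and GSTF3 [AT2G02930], another pair of close copies, rose by 1.74 ± 0.40 and 2.1 ± 0.33.

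Of 42 measured genes named as peroxidases 7 rose and 1 fell, 19.0% called against 4.32% of all genes, with a median of 0.38. They include DOX1 [AT3G01420], whose product is a fatty acid dioxygenase and not a class III peroxidase. AT1G49570 had 24.5, 16.1 and 22.9 FPKM in irr, against 2.597, 0.345 and 0.253 FPKM in WT, a difference of 3.58 ± 0.56 (adjusted p = 0.012). AT5G64120, an abundant secreted peroxidase, had 1886, 579 and 1483 FPKM in irr, against 227, 302 and 337 FPKM in WT, a difference of 2.04 ± 0.47 (adjusted p = 0.0355). AT5G19890 and AT3G03670 rose by 2.68 ± 0.46 and 2.62 ± 0.42. Peroxidase calls in the higher direction were 2, 14 and 0 without irr replicates 1, 2 and 3, and 2, 2 and 6 without WT replicates 1, 2 and 3. Of 14 measured phenylpropanoid and lignin genes PAL1 [AT2G37040] and C4H [AT2G30490], the first enzymes of the pathway, rose, by 2.61 ± 0.53 and 1.46 ± 0.37, and 12 of 14 differences were positive. Phenylpropanoid calls were 0, 4 and 0 without irr replicates 1, 2 and 3, and 0, 0 and 0 without WT replicates 1, 2 and 3. Of the measured phenylpropanoid list 14.3% were called, all higher, against 3.26% of all genes called higher. PAL1 had 128, 43.6 and 128 FPKM in irr, against 13.4, 17.4 and 11.3 FPKM in WT. AT3G13610, an oxygenase in the synthesis of the coumarin scopoletin, rose by 1.93 ± 0.40.

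Most of the called cell wall genes were higher in irr. Of 32 measured extensins and extensin-like genes 6 rose and 1 fell, 21.9% called against 4.32% of all genes, with a median of 0.36. The family was gathered by annotation wording. Its fall, AT2G27385 at -0.70 ± 0.14, and 1 of its rises, AT3G16660 at 1.17 ± 0.24, are annotated as Pollen Ole e 1 allergen and extensin family proteins. Extensin calls in the higher direction were 2, 5 and 2 without irr replicates 1, 2 and 3, and 1, 3 and 8 without WT replicates 1, 2 and 3. EXT4 [AT1G76930], a structural wall glycoprotein and the most abundant transcript among the larger rises, had 4160, 1583 and 3805 FPKM in irr, against 558, 532 and 595 FPKM in WT, a difference of 2.38 ± 0.41 (adjusted p = 0.0164). EXT3 [AT1G21310] rose by 1.74 ± 0.39 and AT1G26250 by 1.74 ± 0.26. Of 41 measured pectin methylesterases and their inhibitors 4 rose and 0 fell, AT2G45220 and ATPMEPCRB among them, while the median was 0.07. XTR6 [AT4G25810] and XTH19 [AT4G30290], enzymes that cut and rejoin xyloglucan, rose by 2.08 ± 0.48 and 2.03 ± 0.51, out of 22 measured with a median of 0.27. EXPA5 [AT3G29030], an expansin that loosens walls, fell by 1.18 on the log2 scale and was the 1 called member of 17 measured. Called shares were 9.76% for pectin methylesterases, 9.09% for xyloglucan enzymes and 5.88% for expansins, against 4.32% of all genes.

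**Figure D3:**
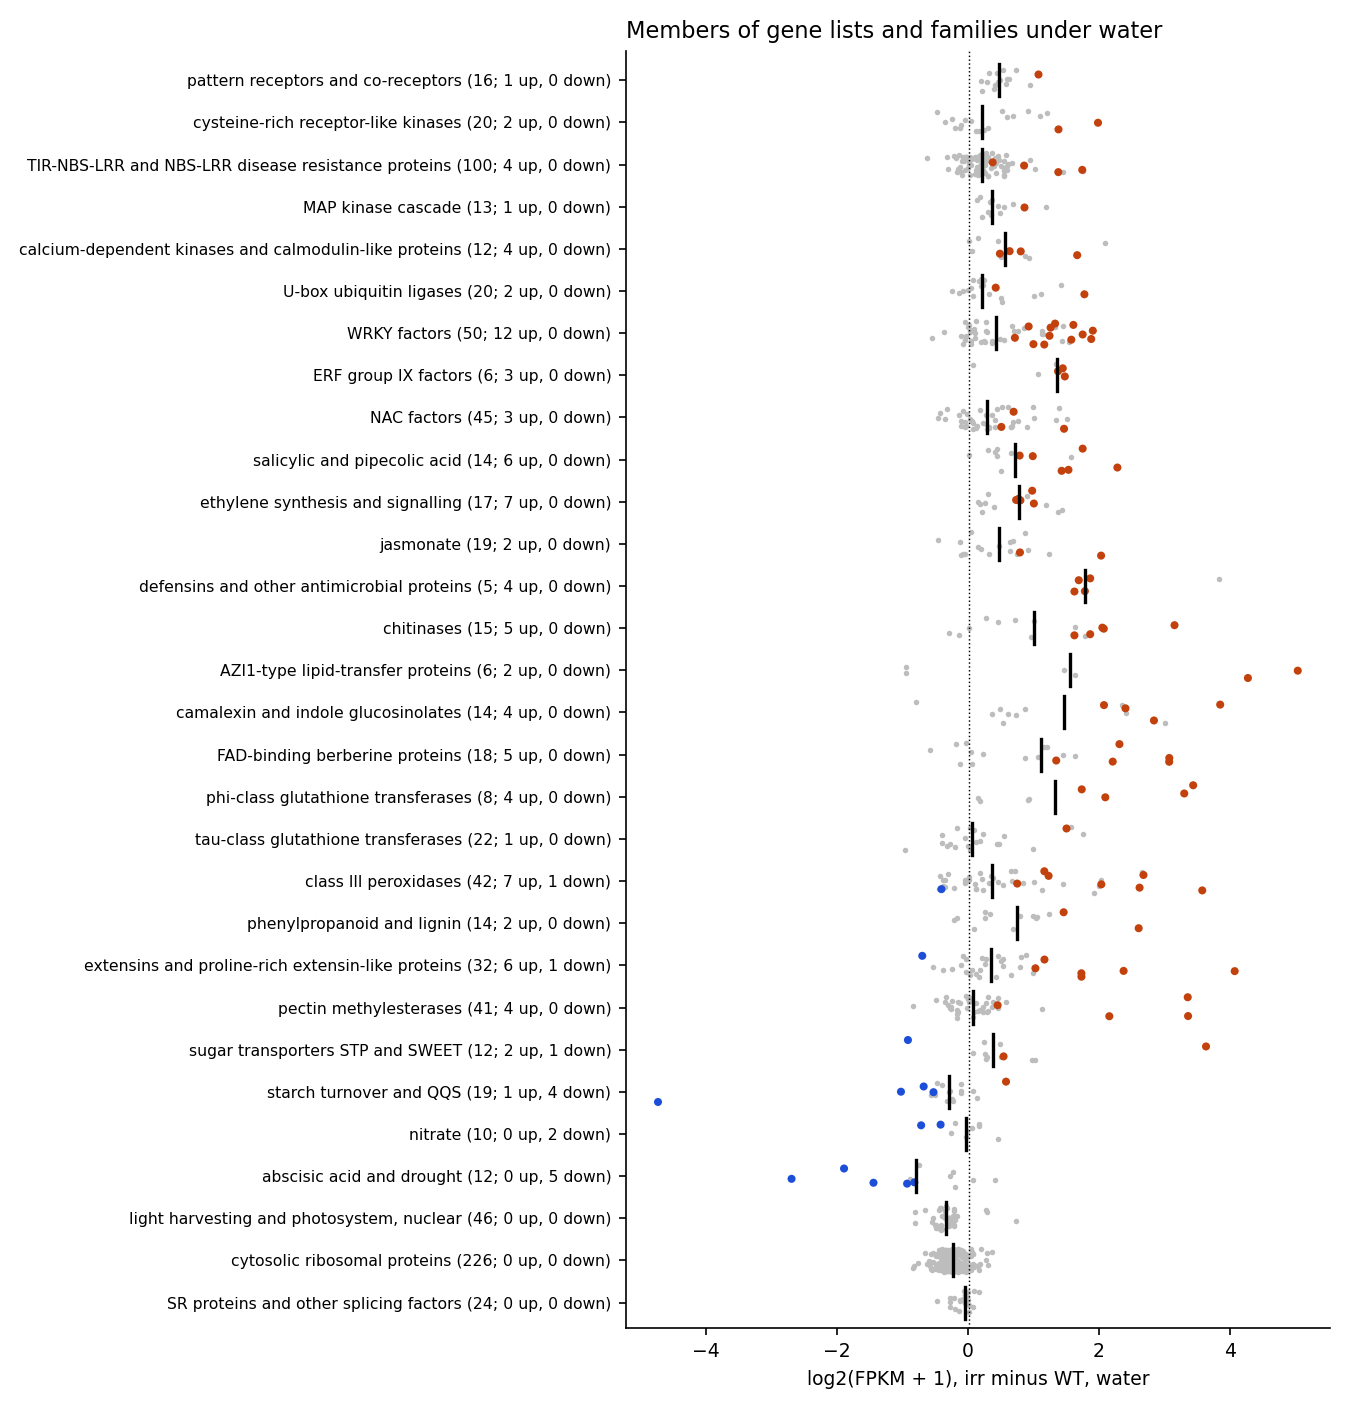
Each point is 1 measured member of a list or family, placed by its difference irr minus WT under water in log2(FPKM + 1), with rows ordered by role and points spread vertically to be seen. Orange and blue points passed the test, grey points did not, the black bar is the median of the row, the dotted line is the median of all genes at 0.02, and the brackets give the number measured and the calls in each direction.

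Sugar transport and starch genes included the smallest p values of the comparison. STP9 [AT1G50310], a glucose transporter best known from pollen, had 14.98, 13.5 and 8.86 FPKM in irr, against 0.04501, 0.0739 and 0.0543 FPKM in WT. In WT this is the level of a few reads, and the groups lie far apart, a difference of 3.64 ± 0.16 (adjusted p = 9.11e-07). QQS [AT3G30720], a gene found in Arabidopsis alone that acts on starch content, had 1.88, 2.04 and 1.15 FPKM in irr, against 77.7, 47.9 and 90.5 FPKM in WT, a difference of -4.73 ± 0.29 (adjusted p = 1.25e-05). It was the largest fall of all genes. Of 19 measured genes of starch turnover, QQS included, 4 fell and 1 rose, with a median of -0.29. In all 26.3% of the list were called, against 4.32% of all genes. Starch list falls were 3, 5 and 1 without irr replicates 1, 2 and 3, and 1, 2 and 2 without WT replicates 1, 2 and 3. SEX4 [AT3G52180], a phosphatase that prepares starch for breakdown, had 3.17, 4.73 and 4.22 FPKM in irr, against 9.73, 8.54 and 9.18 FPKM in WT, a difference of -1.02 ± 0.18 (adjusted p = 0.0185). DPE1 [AT5G64860], a plastid enzyme that rearranges short glucans, fell by 0.67 on the log2 scale, and DPE2 [AT2G40840], which uses exported maltose, fell by 0.52. BAM1 [AT3G23920], a plastid beta-amylase, rose by 0.58 ± 0.10. The vacuolar sugar carriers SWEET2 [AT3G14770] and SWEET17 [AT4G15920] went in opposite directions, at 0.55 ± 0.11 and -0.91 ± 0.19.

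The nitrate and sugar starvation lists held 2 calls each, 20% and 25% of their measured genes, against 4.32% of all genes. NIR1 [AT2G15620], nitrite reductase, fell by 0.71 on the log2 scale, with 32.1, 38.9 and 43.4 FPKM in irr, against 68.2, 64.03 and 56.3 FPKM in WT. LBD39 [AT4G37540], a repressor of nitrate response genes, fell by 0.42, and these were the called members of 10 nitrate genes, whose median was -0.02. ASN1 [AT3G47340], asparagine synthetase, and BCAT-2 [AT1G10070], which breaks down branched-chain amino acids, rose by 0.71 ± 0.17 and 0.63 ± 0.15, and are genes known to be induced when sugar is short. Of 8 measured genes of that kind these 2 passed, and 0 did with library medians made equal. Sugar starvation calls were 0, 1 and 0 without irr replicates 1, 2 and 3, and 0, 0 and 0 without WT replicates 1, 2 and 3. Nitrate list falls were 0, 2 and 0 without irr replicates 1, 2 and 3, and 0, 0 and 1 without WT replicates 1, 2 and 3. Outside these lists, ICL [AT3G21720], isocitrate lyase of the glyoxylate cycle, had 20.8, 11.2 and 23.4 FPKM in irr, against 34.7, 54.2 and 80.8 FPKM in WT, a difference of -1.55 ± 0.38 (adjusted p = 0.0447). GDU4 [AT2G24762], of a family that promotes amino acid export, and the transporters AT4G34950 and AT2G16660 of the major facilitator superfamily fell by 1.57, 2.73 and 1.77 on the log2 scale.

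Abscisic acid and drought genes were the list with the largest share of falls among those described here. Of 12 measured members (17 listed) 5 fell and 0 rose, against 1.05% of all genes called lower, and the median was -0.78. KIN2 [AT5G15970], a cold- and drought-induced protein gene, had 30.8, 35.8 and 39.8 FPKM in irr, against 185, 77.2 and 166 FPKM in WT, a difference of -1.89 ± 0.38 (adjusted p = 0.0235). LEA18 [AT2G35300], for a late embryogenesis abundant protein that protects cells from drying, had 8.19, 1.51 and 2.91 FPKM in irr, against 20.97, 16.5 and 62.2 FPKM in WT, a difference of -2.69 ± 0.56 (adjusted p = 0.0263). RD22 [AT5G25610] fell by 1.44 on the log2 scale, COR15B [AT2G42530], which protects chloroplast membranes in the cold, by 0.93 and P5CS1 [AT2G39800], the entry enzyme of proline synthesis, by 0.82. Without irr replicate 3 and without WT replicate 1 the list had 0 called members, without irr replicate 2 it had 4, and without each of irr replicate 1 and WT replicates 2 and 3 it had 1. Of 36 measured genes annotated as late embryogenesis abundant, a family looked up after the values were seen, LEA18, AtLEA4-1 [AT1G32560] and AT3G02480 fell. The 2 that rose, AT1G65690 by 1.44 ± 0.32 and AT2G27080 by 1.41 ± 0.27, are also annotated as hydroxyproline-rich glycoproteins. The family median was 0.24, and 13.9% of its measured genes were called, against 4.32% of all genes.

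The most abundant genes that fell include plastid and latex-type proteins. AT1G09310, of unknown function, had 216, 398 and 221 FPKM in irr, against 564, 513 and 564 FPKM in WT, a difference of -1.03 ± 0.26 (adjusted p = 0.0498). OEP6 [AT3G63160], a protein of the chloroplast outer envelope, had 127, 129 and 114 FPKM in irr, against 363, 272 and 325 FPKM in WT, a difference of -1.36 ± 0.16 (adjusted p = 0.00324). PORB [AT4G27440], a light-dependent enzyme of chlorophyll synthesis, had 133, 123 and 117 FPKM in irr, against 328, 238 and 205 FPKM in WT, a difference of -1.01 ± 0.16 (adjusted p = 0.0118). MLP329 [AT2G01530] and MLP34 [AT1G70850], of the major latex protein-like family, fell by 1.36 and 1.67 on the log2 scale, and all 7 measured members of that family, looked up after the values were seen, had negative differences. Only these 2 were called, 28.6% of the 7, against 1.05% of all genes called lower. Since the family was looked up for its falls, these figures describe it and test nothing. NEET [AT5G51720], an iron-sulfur protein, fell by 1.52, and SADHU3-2 [AT3G42658], a retroelement-derived transcript, by 2.07.

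Photosynthesis and translation genes had mostly negative differences, with no member passing, against 4.32% of all genes called. Of 46 nuclear genes for light harvesting and photosystems 43 had negative differences, the median was -0.34, and 0 were called, or 2 lower after quantile normalization. CAB1 [AT1G29930], a chlorophyll-binding protein gene, had 31460, 32153 and 27423 FPKM in irr, against 50279, 37729 and 44521 FPKM in WT and a difference of -0.54 ± 0.22 (adjusted p = 0.186). Its close relatives share much sequence, so reads may be divided among them uncertainly. The 6 mesophyll markers, all measured, summed to 25993 to 31494 FPKM in irr and 34813 to 39522 FPKM in WT, and their median difference was -0.15, or 0.02 after quantile normalization. The part of these markers in the falls of OEP6, PORB and the photosystem genes was not tested. In bulk samples fewer cells of a type and less RNA per cell cannot be told apart. Of 226 measured ribosomal protein genes 205 had negative differences, with a median of -0.22. The same medians were -0.40 and -0.28 with library medians made equal. The 94 measured chloroplast-encoded genes had a median of 0.34 and 0 calls, beside the high share of such transcripts in irr replicate 3.

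Splicing factors, the class of protein to which IRR is linked, showed no called member among 24 measured, with a median of -0.05. Over all genes 4.32% were called, so a list of this size would hold few calls at that share. GRP7 [AT2G21660], an RNA-binding protein of the clock and of immunity, had 356, 274 and 279.6 FPKM in irr, against 483, 322 and 475 FPKM in WT and a difference of -0.48 ± 0.20 (adjusted p = 0.191). None passed either among the measured 26 ABCG transporters, 14 cell cycle and replication genes, 18 heat shock proteins, 12 genes of protein folding in the endoplasmic reticulum, 7 flavonoid genes, 5 low-oxygen genes, 6 phosphate deficiency genes and 4 sulfur genes. A p that misses the threshold does not show that these did not differ, and the folding genes had 12 of 12 positive differences with a median of 0.47. In the clock list LHY [AT1G01060] rose by 0.78 ± 0.17 and was the 1 called member of 13. The histone family held 1 call, AT4G17080, which the annotation names a histone methyltransferase and not a histone.

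Against 4.32% of all genes called, tissue markers gave no call in the guard cell, vasculature, root and root hair lists. Their summed levels were 33.6 to 41.7 FPKM in irr and 31.8 to 38.8 FPKM in WT for 7 guard cell genes, and 62.2 to 83.7 FPKM in irr and 67.5 to 82.9 FPKM in WT for 8 vasculature genes. The 7 root markers summed to 305 to 576 FPKM in irr and 506 to 766 FPKM in WT, mostly from PYK10 [AT3G09260], a beta-glucosidase, at 396, 553 and 291 FPKM in irr, against 730.3, 491 and 747 FPKM in WT. The 8 root hair markers summed to 8.68 to 14.6 FPKM in irr and 4.03 to 10.1 FPKM in WT. Of 7 seed storage genes 0 passed the expression filter, and SESA1 and SESA3 were at 0 in all 6 libraries.

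The replicates of irr and those of WT were not equal in the genes that rose. Among the 571 genes called higher, irr replicate 2 was the lowest irr library in 359, replicate 1 in 140 and replicate 3 in 72. Among the 79 of them that differed by at least 2 on the log2 scale, replicate 2 was the lowest in 67. Over all tested genes the same libraries were lowest in 5285, 4328 and 7877. Among the 571 genes, WT replicates 1, 2 and 3 were the lowest WT library in 313, 187 and 71. These WT libraries were lowest in 7223, 4474 and 5793 of all tested genes. The median SD on the log2 scale of the genes called higher was 0.23 in irr and 0.17 in WT, against 0.16 in irr and 0.14 in WT over all genes. Among the 184 genes called lower it was 0.16 in irr and 0.16 in WT. In 100 of these 184 genes irr replicate 2 was the highest irr library.

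The same genotype contrast was measured with Pep1 in the other 6 libraries. Both contrasts share 1 estimate of the spread for each gene, so a call in both is not an independent repeat. The Pep1 contrast called 253 of the 17490 genes, 1.45%. Of the 755 genes called under water, 119 were called with Pep1 as well, all in the same direction, 102 higher and 17 lower. They are 15.8% of the genes called under water and 47.0% of those called with Pep1. Leaving out 1 library at a time gave 24 calls with Pep1 (without WT Pep1 replicate 3) to 1503 (without irr Pep1 replicate 3), and 15 genes called in both (without WT water replicate 1) to 594 (without irr Pep1 replicate 3). In 680 of the 755, 90.1%, the difference with Pep1 had the same sign, against 68.2% over all genes tested. The median difference with Pep1 was 0.44 for the genes higher under water and -0.31 for those lower, and since the genes were chosen by their water values, a smaller value with Pep1 is no sign of a weaker effect.

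STP9, QQS and AT4G01980 had differences of a like size in both treatments. STP9 differed by 3.84 ± 0.16 with Pep1 and QQS by -4.59 ± 0.29 (adjusted p = 4.85e-07 and 2.63e-05). AT4G01980, which the reference annotation classes as a pseudogene, had 0, 0 and 0.175 FPKM in irr, against 5.89, 5.94 and 7.66 FPKM in WT under water and 0.0612, 0 and 0.0608 FPKM in irr, against 3.76, 8.29 and 6.76 FPKM in WT with Pep1. Among defence genes called in both, AT1G26240 differed by 5.59 ± 0.56 with Pep1, CYP71A12 by 3.96 ± 0.64, AT1G26380 by 4.08 ± 0.70 and CBP60G by 2.86 ± 0.44. FLOT1 [AT5G25250], a membrane-domain protein of endocytosis, and CCOAMT [AT1G67980], a methyltransferase of the caffeoyl-CoA type, differed by 2.9 ± 0.53 and 2.97 ± 0.49 under water and by 3.5 ± 0.53 and 3.22 ± 0.49 with Pep1. AT1G13480, of unknown function, differed by 3.06 ± 0.40 and 2.82 ± 0.40. In all 17 genes were lower in both treatments, and plastid genes among them were not counted. Of those that follow, CP29 and PTAC17 were chosen after their values were seen. CP29 [AT3G53460], an RNA-binding protein of the chloroplast, differed by -0.52 ± 0.11 under water and -0.56 ± 0.11 with Pep1, and OEP6 by -0.78 ± 0.16 with Pep1. PTAC17 [AT1G80480], found with the plastid chromosome, differed by -0.47 ± 0.08 and -0.44 ± 0.08, and CYP76C1 [AT2G45560], a cytochrome P450 that oxidizes linalool, by -0.66 ± 0.10 and -0.53 ± 0.10. The berberine family had 4 of its 5 genes called in both. None of the ethylene, group IX ERF, jasmonate, abscisic acid and nitrate genes called under water was called with Pep1. Over all genes called under water 15.8% were called with Pep1. KIN2 differed by -0.75 ± 0.38 and RD22 by 0.24 ± 0.35 with Pep1 (adjusted p = 0.325 and 0.761). The other called abscisic acid genes, LEA18, COR15B and P5CS1, differed by -1.75 ± 0.56, -0.44 ± 0.23 and 0.15 ± 0.19 with Pep1. Of group IX, ERF5, AT5G51190 and ORA59 differed by 1.09 ± 0.29, 1.4 ± 0.34 and -0.08 ± 0.22 with Pep1.

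**Figure D4:**
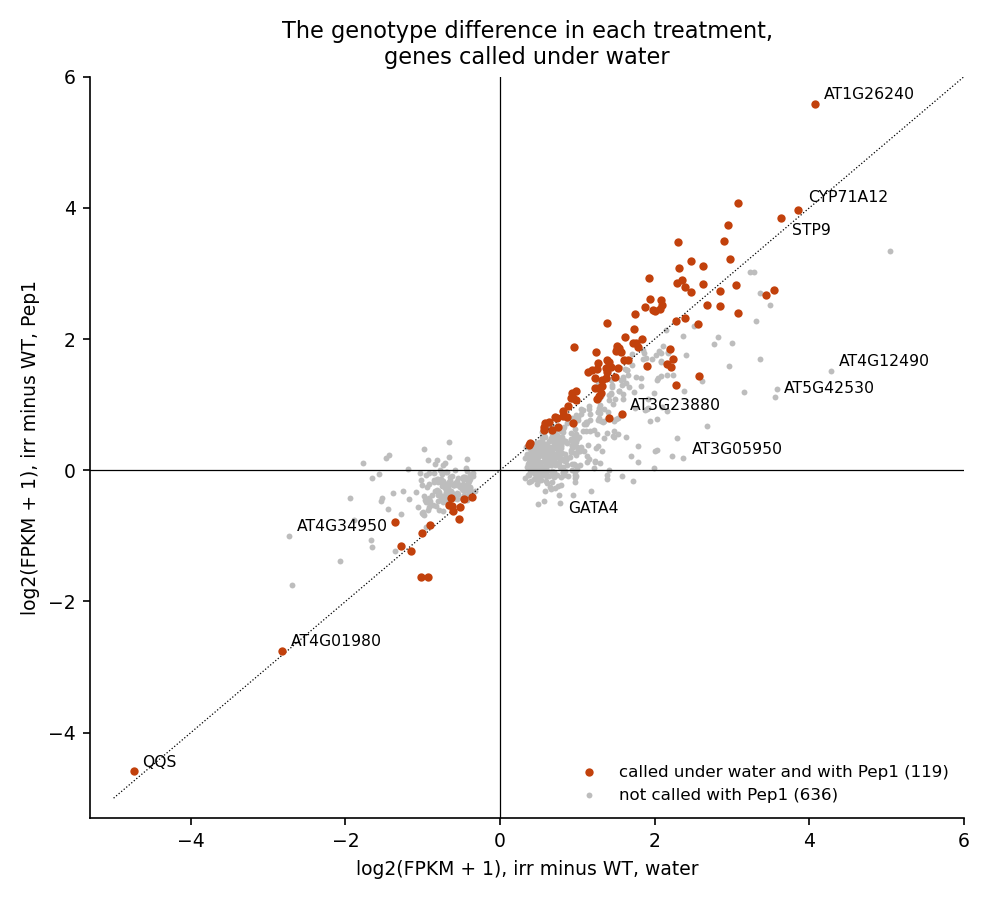
Each point is 1 of the 755 genes called under water, with its difference irr minus WT in log2(FPKM + 1) under water (horizontal) and with Pep1 (vertical), measured in different libraries. Orange points are the 119 genes called in both, grey points the 636 not called with Pep1, and the dotted line marks equal differences, close to which STP9, QQS and AT4G01980 lie.

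A genotype difference that is called in 1 treatment and not in the other is not shown to differ between them, and the interaction tests that. It called 0 of 17490 genes (limma), with 1164 at an unadjusted p under 0.05. With a pseudocount of 0.1 it called 1 gene, the root hair gene RHS13 [AT4G02270], and without WT water replicate 3 it called 1 other, AT2G47540. Among genes called under water the smallest interaction p values belonged to GATA4 [AT3G60530], RUP1 [AT5G52250], AT3G05950, BCCP2 [AT5G15530] and AT3G23880, each with an adjusted p of 0.225. RUP1, a repressor of the UV-B light response, had 38.7, 40.9 and 35.1 FPKM in irr, against 22.99, 22.3 and 23.9 FPKM in WT under water and 33.1, 33.03 and 36.5 FPKM in irr, against 35.7, 35.3 and 33.00 FPKM in WT with Pep1. BCCP2, a subunit of the enzyme that starts fatty acid synthesis, had 20.8, 21.4 and 19.7 FPKM in irr, against 11.3, 12.95 and 11.7 FPKM in WT under water and 10.7, 12.5 and 10.5 FPKM in irr, against 11.4, 12.9 and 11.1 FPKM in WT with Pep1. AT3G05950, a cupin of the germin type, had 6.24, 10.1 and 5.94 FPKM in irr, against 0.791, 0.216 and 0.848 FPKM in WT under water and 9.92, 7.66 and 7.64 FPKM in irr, against 5.0, 6.68 and 11.2 FPKM in WT with Pep1. In these 3 genes the genotypes separate under water and overlap with Pep1, while the test of that difference did not pass.

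Genes beside the IRR locus were looked at in the order of the reference annotation. Of the 10 protein-coding genes on either side of AT3G23900, 14 of 20 passed the expression filter and 2 were called, both higher. These 2 are 14.3% of the 14, against 3.26% of all genes called higher. AT3G23880, an F-box protein gene second in order from IRR, had 38.1, 39.9 and 40.1 FPKM in irr, against 13.01, 13.3 and 11.4 FPKM in WT, a difference of 1.58 ± 0.09 (adjusted p = 5.91e-06). With Pep1 it had 25.4, 28.2 and 27.5 FPKM in irr, against 15.1, 13.4 and 14.9 FPKM in WT, a difference of 0.86 ± 0.09 (adjusted p = 0.00162). It had the second smallest p of all genes under water, and the irr values lay within 38.1 to 40.1 FPKM. BAM1 is the second gene on the other side and had 41.2, 43.3 and 46.3 FPKM in irr, against 26.5, 33.3 and 26.8 FPKM in WT under water, a difference of 0.58 ± 0.10 (adjusted p = 0.0148), and of 0.72 ± 0.10 with Pep1. The genes between them and IRR, TOPII [AT3G23890] and AT3G23910, differed by 0.16 ± 0.23 and -0.19 ± 0.14 and were not called. Over the genome 6.39% of the genes called higher lay beside another gene called higher, against 4.41% of all tested genes.

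**Figure D5:**
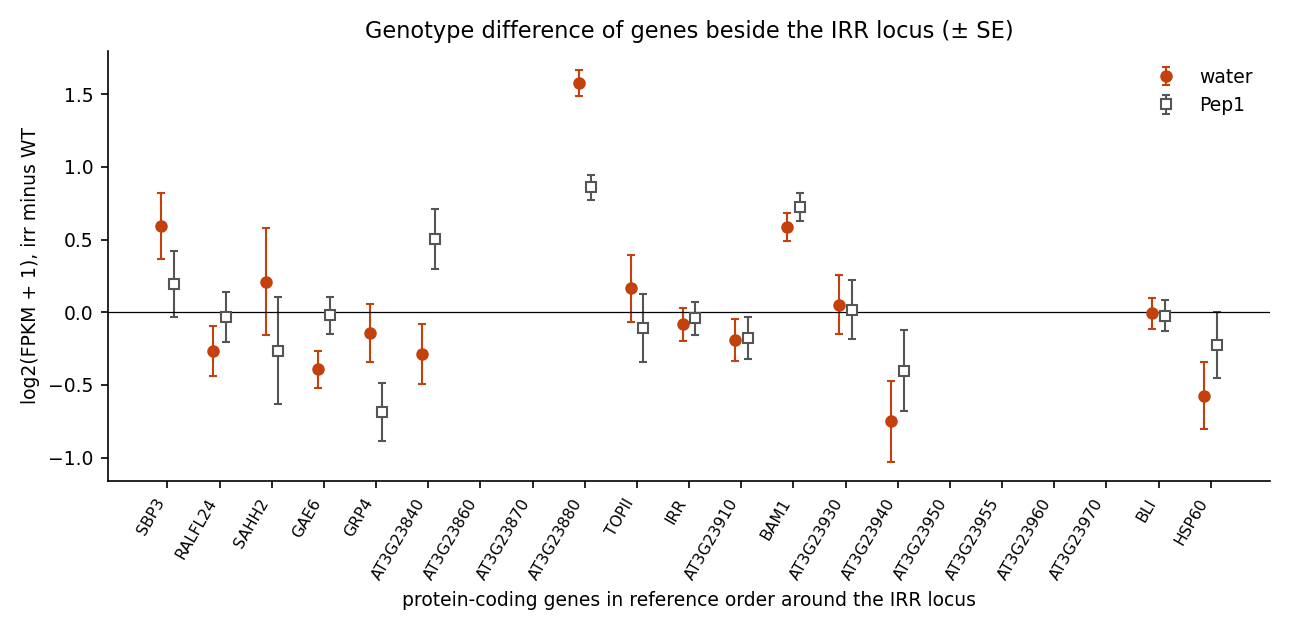
Difference irr minus WT in log2(FPKM + 1) ± SE (vertical) for the 10 protein-coding genes on either side of the IRR locus and the locus itself, in reference order (horizontal, evenly spaced), under water (filled circles) and with Pep1 (open squares); genes without a point did not pass the expression filter. AT3G23880 at 1.58 and BAM1 at 0.58 are the called genes under water.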

How the data were processed

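RNA of seedlings was sequenced as paired ends, per the labels' protocols. The authors deposited 1 table of FPKM values, fragments per kilobase scaled to library size, with a column per library. The aligner, counting tool, genome build, annotation and use of strand were not given in the sources used here. For this reason no coordinates and no sequences are printed. TAIR10.1 served for names, gene classes, gene order and a check of depth by length, and 31912 of 32846 identifiers matched it. The depth of each library was recovered from the steps between low FPKM values, and with each gene's length left free it gave whole reads (within 0.05 reads) in all 12 libraries for 100% of 1000 low genes. A free length can take up a factor common to all libraries. That check therefore bears on the totals relative to each other and not on their common scale. With TAIR10.1 lengths, 30.2% to 34.9% of values in a library were whole, against 10.4% to 15.2% with a wrong total. Depth bounds counting error only.

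Genes with at least 1 FPKM in at least 3 of the 6 water libraries were taken as log2(FPKM + 1), a pseudocount of 1, which understates changes of low genes. limma 3.58.1 in R 4.3.3 was fitted with 1 mean for each of 4 groups over 12 libraries, which left 8 residual degrees of freedom, and with a trend of variance on level. The two-sided p-values were adjusted by Benjamini and Hochberg's method across every tested gene, and the threshold was 0.05. Figures were drawn with matplotlib 3.10.9.

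The comparison, the 61 gene lists and families and the rule for named genes were chosen with earlier results of these data known, and 4 families were added after values were seen. Of the list entries 5 were dropped because symbol and identifier disagreed. Named genes are the IRR locus and CPK28, the 15 largest rises and falls, the 5 most abundant rises and falls, up to 4 called or 2 abundant members per list, the 10 largest differences shared by both treatments, the 5 smallest interaction p values and called neighbours of IRR. A gene named beyond this, such as DPE2, P5CS1, DOX1, TOPII, AT3G23910, AT2G27385, AT3G16660, AT2G47540, CP29 or PTAC17, was chosen after its values were seen. Alternatives were pseudocounts of 0.1 and 5, other filters, scalings, variance models and sample sets, the replicate number as a block, and leaving out each library. Promoter motifs were not analysed here.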

Additional observations from a re-analysis of the deposited data

Results flagged for a closer look

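Among the named genes, 2 had a genotype difference in opposite directions under water and with Pep1, without overlap between irr and WT in either treatment. GATA4 [AT3G60530], a transcription factor of the GATA family, had 79.1, 104 and 102 FPKM in irr, against 54.4, 52.04 and 58.9 FPKM in WT under water and 37.8, 41.97 and 50.5 FPKM in irr, against 60.9, 50.8 and 57.2 FPKM in WT with Pep1. The difference between the 2 contrasts was -1.14 ± 0.18 on the log2 scale (limma, unadjusted p = 5.18e-05, adjusted p = 0.225). EXPA7 [AT1G12560], an expansin of root hairs, had 6.11, 3.51 and 3.46 FPKM in irr, against 1.96, 0.834 and 2.12 FPKM in WT under water and 0.161, 0.601 and 0.696 FPKM in irr, against 2.67, 5.71 and 1.28 FPKM in WT with Pep1, a difference between contrasts of -2.41 ± 0.50 (limma, unadjusted p = 0.000465, adjusted p = 0.351). Neither passed the test of the difference after adjustment, and both were picked out by their values.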

How the results depend on the processing

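The 755 genes called under water kept their direction with equal library medians, quantile normalization and equal nuclear sums. In the other fits their direction follows from irr and WT values that do not overlap. Counts moved by more than 1.5 times as follows, with the cause not tested unless the change itself names it. Without an expression filter, where 25223 genes were tested, 328 genes were called, 242 higher and 86 lower, 112 by at least 1 (log2), and 147 with Pep1 and 49 in both. The count differing by at least 1 was 413 with a pseudocount of 0.1 and 115 with one of 5, which also gave 68 genes in both treatments. A minimum mean of 5 FPKM gave 106 genes with Pep1 and 68 in both. Genes lower in irr were 304 with equal library medians and 380 after quantile normalization. With the replicate number as a replicate block 404 genes were called, 287 higher and 117 lower, 155 by at least 1, with 77 for Pep1 and 41 in both. Whether the numbers pair the samples is not stated. Deviations of same-numbered irr and WT water libraries correlated at -0.08, -0.04 and 0.03, which does not settle it. The Pep1 libraries were not checked for pairing. Library quality weights gave 1663 genes with Pep1 and 471 in both, and a fit of only the 2 groups compared gave 22 and 14, with no interaction to be had from it. The interaction called 1 gene with a pseudocount of 0.1. Leaving out 1 library at a time gave 46 to 1444 genes called, 33 to 1116 higher genes, 13 to 328 lower genes, 29 to 522 genes differing by at least 1, 24 to 1503 genes with Pep1, 15 to 594 genes in both treatments and 0 to 1 interaction calls. Equal FPKM sums over nuclear genes, added after the chloroplast shares were seen, gave 814 calls, 659 higher and 155 lower. Depth limits genes near a few reads, such as STP9 and FMO1 in WT.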
